A study of Mus musculus with 12 samples.

Results

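The comparison described here was between effector memory (TEM) and naïve CD4+ T cells that carried no mark of past GM-CSF expression. It used the 6 YFP- libraries of a 12-library RNA-seq series, 3 from TEM cells (Effector/Memory YFP-) and 3 from naïve cells (Naïve YFP-), and they were chosen by their labels alone. The cells were sorted from the spleens of unimmunized *Gr/fr* mice of the C57BL/6 strain, as CD62L+CD44- (naïve) or CD62L-CD44hi (TEM). In these mice the *Csf2* allele, which encodes GM-CSF, also drives Cre recombinase and BFP, and Cre switches on eYFP from the Rosa26 locus for good, so that YFP- cells are those with no record of expression from this allele. All 4 groups of the series carried the same alleles and received no treatment, and the mice of other sorts in the study were 2 to 3 months old, with no separate age stated for this one. The 6 YFP+ libraries, 3 naïve and 3 TEM, are described below only to set the memory difference of YFP- cells against theirs. They also shared the gene filter and the fit, so they helped to set the standard errors, p-values and calls of the YFP- comparison.

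Naïve CD4+ T cells recirculate between blood and lymphoid organs. They enter lymph nodes with the help of CCR7, leave along a gradient of sphingosine phosphate, and are held in a resting state by transcription factors such as TCF1, LEF1, KLF2 and FOXO1. Effector memory cells have met antigen, have largely lost the lymph node homing receptors, carry CD44 and receptors for inflamed tissue, and make cytokines quickly on a second encounter. In an unimmunized mouse the CD44hi CD62L- gate also takes in activated regulatory T cells and follicular helper T cells.

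The sorted identities were checked first on *Cd44*, whose protein the gates used. It stood at 3113, 2397 and 2984 normalized counts in the naïve libraries and at 22433, 21833 and 21778 in the TEM libraries, with no overlap between the groups. *Cd3e*, a chain of the T cell receptor complex, gave 36175 ± 3765 in naïve and 36753 ± 5572 in TEM cells (mean ± SD of 3 libraries, as for all levels given in this form), with overlapping libraries. *Cd4* stood at 41908 ± 4498 in naïve and at 62916 ± 4036 in TEM cells. After a log2 fold change, ± gives its standard error in the limma fit instead. *Csf2* itself was at most 3.46 normalized counts in any of the 6 libraries, which is at or under 3 reads in each, the level taken as the floor.

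The libraries held between 40974124 and 57822269 reads on genes, and the TEM libraries detected 16567 to 16927 genes against 15182 to 15920 in the naïve ones. Log2 values of libraries within a group correlated at 0.979 to 0.984 (Pearson, across genes), and those of the 2 groups at 0.875 to 0.888. The first principal component of the 6 libraries held 84.05% of the variance and separated TEM from naïve cells. Naïve replicate 2 lay apart from the other naïve libraries on the second component, which held 5.42%, and it also had the highest naïve sum for 6 of the 8 marker lists given below. The study's methods give 3 mice for this sort, but neither they nor the labels tie a library to a mouse. The p-values therefore measure the spread between libraries within groups, estimated over all 12 libraries, which may be technical in part.

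Of 15587 genes tested, 3301 were called higher in TEM YFP- than in naïve YFP- cells (21.2%) and 819 were called lower (5.25%), where a call needed a change of at least 1 on the scale of log2(normalized count + 1), in either direction, and an adjusted p no larger than 0.05. Without the fold change threshold, 4665 genes were higher (29.9%) and 3104 were lower (19.9%). Increases also led with TMM factors (3231 higher and 898 lower), edgeR (3113 and 897) and DESeq2 (3168 and 822), but not with quantile normalization. After quantile normalization 2306 genes were called higher and 2748 lower, so that increases made up 45.6% of calls instead of 80.1%. The median log2 fold change of all tested genes moved from 0.05 to -0.20. Among the 11132 tested genes with a mean of 100 or more over the 6 libraries, quantile normalization called 1438 higher and 1228 lower. The same setting still called 2286 of the 3301 increases and 773 of the 819 decreases in the same direction, and it turned 0 of the increases into decreases. The 2 groups did not overlap for 9198 tested genes (59%), and for 4077 of the 4120 called genes.

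Increases and decreases differed in where they started, which the direction of change sets in part. Genes called higher had a median level of 12 normalized counts in naïve cells and 203 in TEM cells, whereas genes called lower went from a median of 339 to 97.6. The medians of all tested genes were 604 in naïve and 754 in TEM cells. In 826 of the genes called higher (25.0%), no naïve library had more than 3 reads. Of those called lower, 46 (5.62%) had no TEM library with more than 3 reads. Among all 15587 tested genes, 1080 were this low in naïve and 201 in TEM libraries, with 60 low in both. Genes this low in a group could pass the filter only through other groups, so the filter sets these counts in part. On average 3 reads equalled 3.36 normalized counts in naïve and 2.58 in TEM libraries. Changes of 32-fold or more (log2 fold change of at least 5) were reached by 739 increases and 16 decreases. Protein-coding genes gave 3036 increases and 655 decreases among 13513 tested. Long non-coding RNAs gave 123 increases and 86 decreases among 635 tested.

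**Figure D1:**
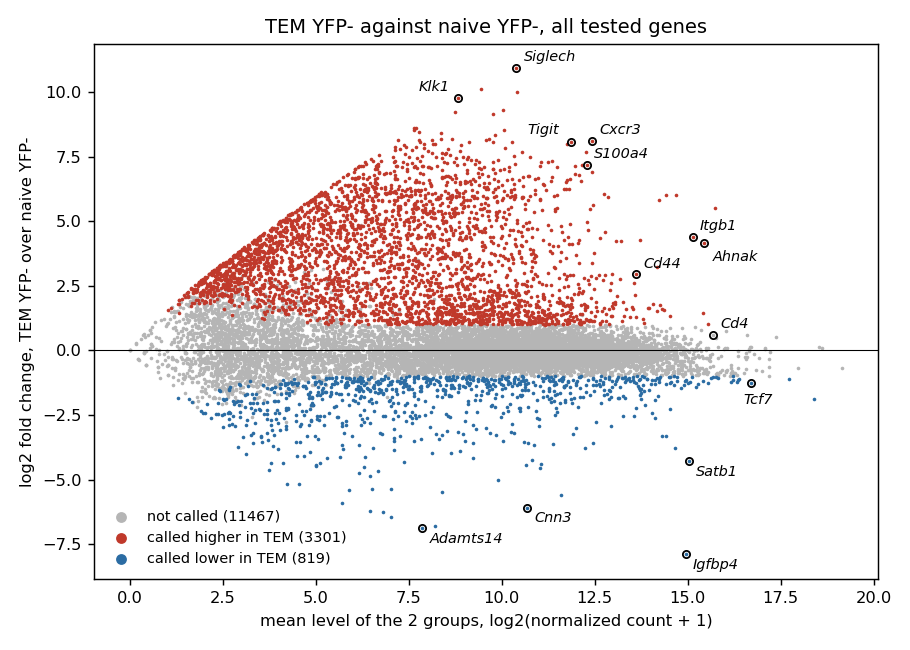
Log2 fold change of TEM YFP- over naïve YFP- cells (vertical axis) against the mean level of the 2 groups on log2(normalized count + 1) (horizontal axis), 1 point per tested gene. The 3301 genes called higher (red) reach to 10.92 and crowd at low levels, where the upper edge of the cloud is set by naïve values of 0, while the 819 genes called lower (blue) reach down to -7.90 for *Igfbp4*, and grey points were not called.

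Markers of other cell types moved with the group, so their sums are given before the genes. The list of 12 conventional dendritic cell markers, which includes the class II genes, summed to between 3289 and 5565 normalized counts in the naïve libraries and between 173006 and 361036 in the TEM libraries, a median of 0.0106% and 0.549% of reads. All 12 of its members rose. The class II invariant chain gene *Cd74* stood at 1727, 2687 and 2454 in naïve and at 98157, 70981 and 149677 in TEM libraries, and *H2-Ab1* at 477, 1043 and 876 against 47727, 35321 and 71386. *Itgax*, which encodes CD11c, went from 69.1 ± 22.9 to 8001 ± 2570. Of the 12 plasmacytoid dendritic cell markers 11 rose, and their sum went from 8724 to 9644 in naïve up to 19167 to 31475 in TEM libraries. The 17 macrophage, monocyte and neutrophil markers summed to 297 to 1595 and to 7900 to 13093. Of 16 tested members 6 were higher (37.5%, beside 29.9% of all tested genes), and the neutrophil genes *S100a8* and *S100a9* were near 0 in TEM cells. Natural killer markers went from 273 to 321 up to 3928 to 6363, although *Ncr1*, which defines that lineage, had 0 reads in all 6 libraries. Of 6 tested members 5 rose and 0 fell. The list holds *Fcer1g* and *Tyrobp*, also known from myeloid cells, which rose by 5.89 and 6.59 on the log2 scale. B cell markers summed to 685 to 1786 in naïve and 2327 to 3414 in TEM libraries, and they split: *Cd79a* (336 ± 119 to 45.6 ± 8.22) and 5 others of the 10 fell, and *Cd22* and *Cd79b* rose, *Cd22* from 189 ± 113 to 2237 ± 474. The increase of *Cd79b* (adjusted p = 0.0359, limma) was lost after quantile normalization, with edgeR, with no variance trend, and without naïve replicate 1 or 3 or TEM replicate 1 or 3 (adjusted p of 0.0511 to 0.742 over these). CD8 and gamma delta T cell markers summed to 1741 to 1906 in naïve and 1067 to 1987 in TEM libraries. They split too: 3 of 5 rose (*Cd8a*, *Trgc1* and *Trgc2*), and 2 fell (*Trdc* and *Cd8b1*). After quantile normalization 1 rose and 2 fell, and *Cd8b1* did not pass in several fits with a library left out. Plasma cell markers summed to 19.6 to 134 and 245 to 474, and none of 5 erythroid markers passed the test. The part of such cells in the results that follow was not tested, and in bulk RNA fewer cells of a type cannot be told apart from less RNA per cell.

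**Figure D2:**
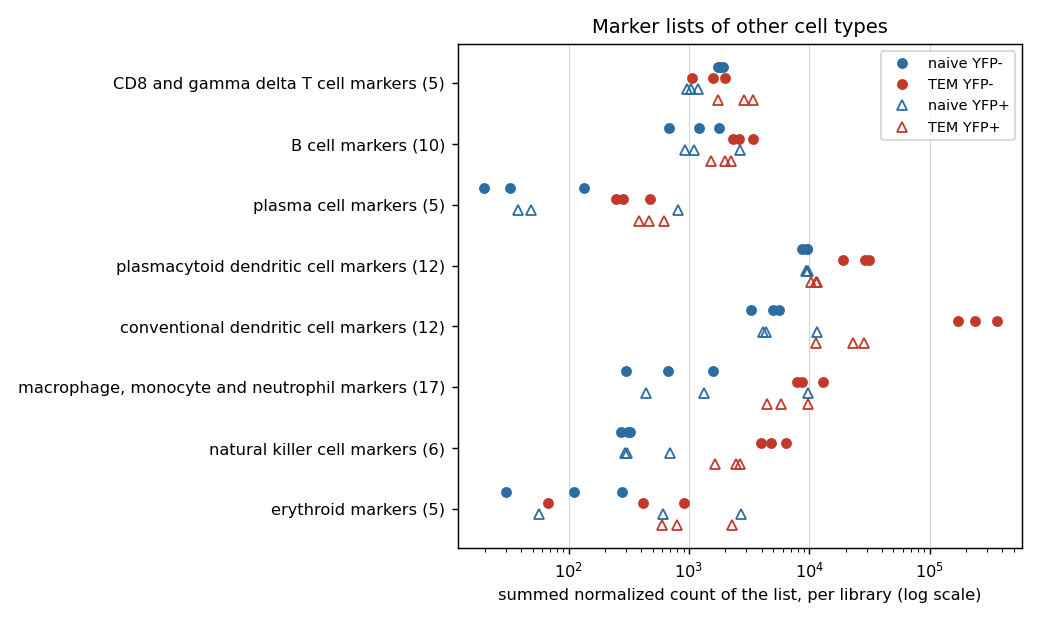
Summed normalized counts of each marker list (number of genes in the table in brackets) in each of the 12 libraries, on a log axis. Conventional dendritic cell markers sit between 173006 and 361036 in the 3 TEM YFP- libraries (filled red circles), above the 3 TEM YFP+ libraries (open red triangles, 11316 to 28522) and all naïve libraries (blue).

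The 10 largest increases were taken from called genes whose groups did not overlap and whose mean reached 50 normalized counts, and they were in genes nearly absent from naïve cells. *Siglech*, a surface lectin of plasmacytoid dendritic cells (chromosome 7, 55768154 to 55779448, GRCm38.p6), had 0, 0 and 1.15 normalized counts in the naïve libraries and 3367, 1412 and 3263 in the TEM libraries, at least 797-fold higher against the floor of 3 reads per library. *Klk1*, a kallikrein also on the plasmacytoid list, had 0 in each naïve library and 1150, 528 and 1052 in TEM cells (at least 270-fold), and its relative *Klk1b27* had 0 against 461, 290 and 451 (at least 119-fold). The kallikrein genes are near-identical copies, so the split of reads between them is uncertain. *D13Ertd608e* had 0 in each naïve library and 454, 242 and 536 in TEM libraries. *Spp1*, which encodes the secreted phosphoprotein osteopontin, rose from 0 in each naïve library to 682, 2770 and 728, at least 414-fold. *Edn3*, encoding the peptide endothelin 3, rose from at most 1.15 to 813, 1269 and 462. *Sostdc1*, a secreted antagonist of BMP signalling, rose from 0, 5.30 and 0 to 1877, 5653 and 652. TEM replicate 2 was the highest of the 3 for *Spp1*, *Edn3* and *Sostdc1*, and the lowest for *Siglech*, *Klk1*, *Klk1b27* and *D13Ertd608e*. The remaining 3 were *Klrg1*, an inhibitory receptor of differentiated lymphocytes (2.30, 8.49 and 0 to 2688, 1189 and 2456), the cytokine gene *Il21* (0, 11.7 and 0 to 1001, 3542 and 661) and *Cebpa*, a transcription factor best known from myeloid cells (1.15, 13.8 and 4.61 to 1647, 2849 and 1935). Among genes at the floor in naïve cells, *Adam11* had the fifth highest TEM level (721 ± 298, at least 214-fold).

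The 10 largest decreases started from higher levels. *Igfbp4*, which encodes a binding protein of insulin-like growth factors (chromosome 11, 99040005 to 99052655), stood at 66701, 59832 and 61261 normalized counts in the naïve libraries and at 302, 170 and 348 in the TEM libraries (log2 fold change -7.90, SE 0.61, limma adjusted p = 5.32e-07). *Ly6c1*, encoding a GPI-anchored surface antigen of naïve T cells, fell from 6085 ± 475 to 127 ± 31.5, but it has close copies in its cluster and its reads may be split among them. *Cnn3*, an actin-binding calponin, fell from 3238 ± 213 to 46.8 ± 7.85. *Ampd1*, encoding AMP deaminase, fell from 584 ± 95.9 to 4.44 ± 1.86, and *Adamts14*, a secreted metalloprotease, from 460 ± 120 to 2.83 ± 0.321. The other 5 were *Wnt5b*, a Wnt ligand (655 ± 75.3 to 14.2 ± 4.62), *Fam240a* (254 ± 87.1 to 2.50 ± 2.27), *Tmem108* (218 ± 13 to 2.60 ± 2.26), the chemokine receptor gene *Cxcr1* (171 ± 70.7 to 1.71 ± 2.14) and *Dmbt1* (102 ± 6.16 to 0.834 ± 0.758). *Dmbt1* was at the floor in TEM cells, at least 39.7-fold lower, and so were *Aadacl2fm2*, *Ccnjl*, *Chl1* and a gene with no symbol (Entrez identifier 320197), each with a naïve mean between 31.7 and 47.7.

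**Figure D3:**
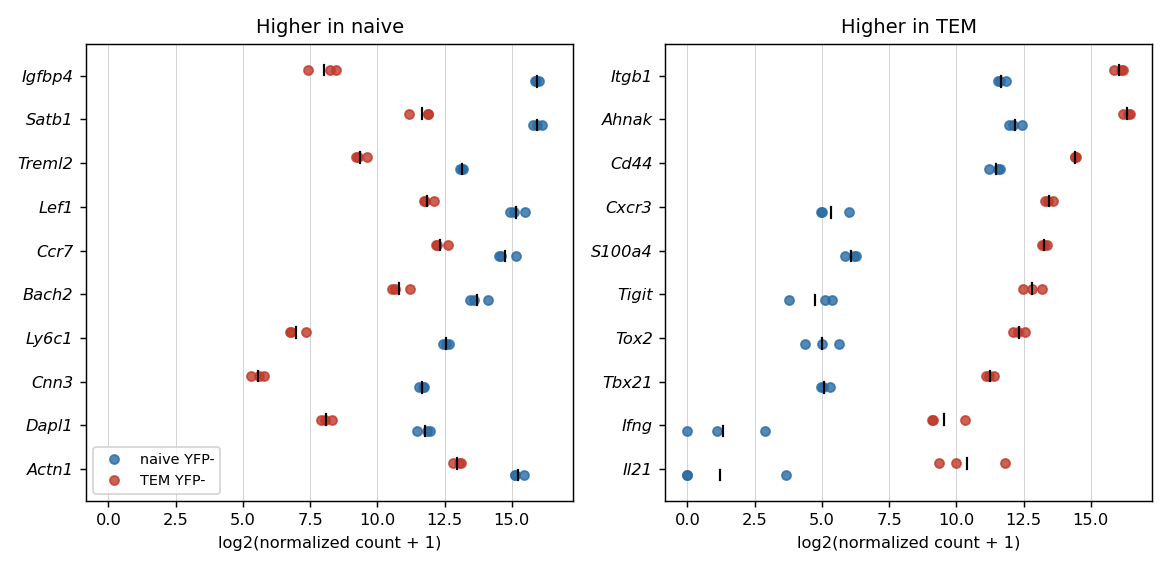
Values of 20 genes in each of the 6 YFP- libraries on log2(normalized count + 1), naïve in blue and TEM in red, with a black bar at the mean of 3. In the left panel all 10 genes sit higher in every naïve library and in the right panel all 10 sit higher in every TEM library, with the widest scatter for *Il21* and *Ifng*.

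Most genes listed for the naïve state fell. Counts for this list and those below stand beside 29.9% of all tested genes that rose and 19.9% that fell. The lists were chosen with earlier results of these data known, so their counts describe the members and do not test the lists. Of 24 genes of naïve identity and quiescence, 21 fell, 0 rose and 3 (*Tob1*, *Slfn2* and *Btg2*) did not pass, with a median log2 fold change of -1.30 beside 0.05 for all tested genes. *Ccr7*, the receptor that brings naïve cells into the T cell zone, fell from 36831, 24839 and 23611 to 6266, 4814 and 4631. *S1pr1*, the exit receptor for sphingosine phosphate, fell less (36123 ± 6096 to 14345 ± 1303). Among transcription factors, the chromatin organizer gene *Satb1* fell from 71465, 63475 and 55911 to 3806, 2342 and 3754 (-4.30 ± 0.29), *Lef1* from 37136 ± 7578 to 3758 ± 576 and *Bach2*, a repressor of effector genes, from 13785 ± 3574 to 1836 ± 478. *Tcf7*, which encodes TCF1, kept a level of 62665 ± 5746 in TEM cells against 149034 ± 11005 in naïve ones, a log2 fold change of -1.25 ± 0.14, and *Klf2* was similar in size at -1.16 ± 0.17. The interleukin 7 receptor chain gene *Il7r*, needed for survival of resting cells, fell from 60505 ± 1753 to 38376 ± 3861. *Dapl1*, *Treml2* and *Actn1* also fell, with log2 fold changes of -3.66, -3.77 and -2.26.

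Genes of calcium-binding S100 proteins, annexins, galectins and the cortical cytoskeleton rose together. Of 18 tested, 15 rose and 0 fell, with a median log2 fold change of 2.12. *S100a4* went from 71.4, 76.4 and 56.4 normalized counts to 9678, 9245 and 10698 (7.17 ± 0.25, adjusted p = 1.86e-09), and *S100a6*, its neighbour on chromosome 3, from 26.5, 78.5 and 78.3 to 7142, 8971 and 7610. Their family members were less steep: *S100a11* rose from 1447 ± 100 to 11056 ± 1014 and *S100a10* from 3915 ± 324 to 12334 ± 654. *Anxa2*, the annexin partner of S100A10 at the membrane, rose from 251 ± 25.1 to 6072 ± 817. *Ahnak*, a giant scaffold protein that binds that pair, rose from 4669 ± 813 to 83176 ± 8250, and *Myo1f*, an unconventional myosin, from 93.9 ± 31.0 to 10943 ± 1030. *Crip1*, *Anxa5* and *Tagln2* did not pass, with *Crip1* at 3603 ± 619 in naïve and 3525 ± 593 in TEM cells.

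Among 18 adhesion receptor genes 12 rose and 4 fell, with a median of 1.16. *Itgb1*, the shared beta chain of the VLA integrins, stood at 3657, 3000 and 3177 in naïve and at 71079, 75336 and 59451 in TEM libraries (4.39 ± 0.12, adjusted p = 3.26e-10). Alpha chains that pair with it differed in size: *Itga1*, a collagen receptor chain, was at the floor in naïve cells and 90.3 ± 24.5 in TEM cells (at least 26.9-fold), whereas *Itga6*, a laminin receptor chain, fell from 10256 ± 2126 to 3500 ± 152. *Itgae*, the alpha chain of the E-cadherin receptor CD103, rose from 126 ± 42.5 to 2511 ± 707, and *Itgb8*, which takes part in activating TGF-beta, from 31.0 ± 12.7 to 1385 ± 472. *Itgb3* and *Icam2* fell by 1.38 and 0.96 on the log2 scale.

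Most chemokine receptors of the list used here rose. Of its 17 members, 15 rose, *Ccr7* fell and *Cxcr4* did not pass, and the median log2 fold change was 5.27. *Cxcr1*, a chemokine receptor gene outside this list, fell by 6.23 on the log2 scale, as given above. *Cxcr3*, which binds interferon-induced chemokines, went from 31.1, 63.7 and 30.0 to 10845, 12330 and 10015 (8.10 ± 0.33, adjusted p = 4.17e-09). *Cxcr6*, a receptor of tissue-resident cells, rose from 12.9 ± 5.75 to 1224 ± 56.4, and *Ccr10*, a skin homing receptor, from the floor to 203 ± 123 (at least 60.5-fold). Receptors linked to particular helper fates rose as well: *Ccr6* of Th17 cells from 32.5 ± 24.5 to 2120 ± 839, *Ccr8* of Th2 and regulatory cells from 67.8 ± 47.6 to 2270 ± 734 and *Ccr2* from 34.0 ± 11.2 to 1835 ± 107. *Cxcr5*, which leads cells into B cell follicles, rose from 408 ± 45.7 to 7220 ± 1240. The list includes *Xcr1* and *Ccr9*, which dendritic cells also carry. All 7 chemokine genes tested rose, with a median of 5.66, or 4.85 with genes at the floor set at their bound. *Ccl5* went from 4.61, 31.8 and 24.2 to 1972, 2161 and 1086, while *Ccl3* and *Ccl1* had 0 reads in every naïve library and 77.5 ± 46.5 and 96.8 ± 34.1 normalized counts in TEM cells.

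Cytokine transcripts of the YFP- memory cells covered several helper classes. Of 22 helper cytokine and TNF family genes tested, 16 rose and 0 fell, with a median of 2.00 (1.13 at the bounds), and under quantile normalization 13 rose and 1 fell. *Ifng*, the Th1 cytokine, rose from 0, 6.37 and 1.15 to 545, 1291 and 561. *Il10*, an anti-inflammatory cytokine, was at the floor in naïve cells and at 364, 454 and 193 in TEM cells, at least 100-fold higher. *Il4*, the Th2 cytokine, had 0 reads in each naïve library and 30.3, 60.0 and 34.6 normalized counts in TEM libraries (at least 12.4-fold). *Il2* rose from 3.66 ± 2.35 to 159 ± 24.5, and *Tnf* was already present in naïve cells and rose from 383 ± 89.3 to 1303 ± 135. The Th17 cytokine gene *Il17a* was too low to be tested, with 0 reads in naïve cells and 3.28, 0.741 and 2.04 in TEM cells. *Il3* and *Il9* were not analysed here. *Ltb*, *Il16*, *Cd40lg*, *Lta* and *Il17f* did not pass.

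Transcription factors of helper lineages rose in 24 of 29 cases, *Ikzf1* fell and 4 did not pass, with a median of 2.75. The Th1 factor gene *Tbx21* went from 29.9, 31.8 and 38.0 to 2357, 2692 and 2207 (6.14 ± 0.19). *Gata3*, of Th2 cells, was expressed in naïve cells and rose from 3911 ± 781 to 10498 ± 1992, and the Th17 factor *Rora* rose from 129 ± 15.9 to 1279 ± 285. *Maf* rose from 555 ± 99.1 to 13385 ± 2844, *Bhlhe40* from 82.3 ± 9.06 to 6635 ± 2339 and *Tox2* from 33.2 ± 14.7 to 5184 ± 820. Of the paired inhibitors of E proteins, *Id2* rose from 1645 ± 236 to 12304 ± 579, and *Id3* gave 804 ± 222 and 990 ± 243, which did not pass (adjusted p = 0.435) but did with the replicate number as a block (adjusted p = 0.0150). *Ikzf1*, encoding Ikaros, fell from 67774 ± 4962 to 28164 ± 1204, while its relative *Ikzf2*, encoding Helios, rose from 867 ± 36.2 to 16223 ± 262.

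Regulatory T cell genes were 17 of 18 higher and 1 lower, with a median of 2.93. *Foxp3*, the defining factor of that lineage, stood at 2352, 1829 and 2911 in naïve libraries and at 19208, 11161 and 17909 in TEM libraries, with TEM replicate 2 the lowest of its group. *Nrp1*, a receptor of thymus-derived regulatory cells, rose from 979 ± 278 to 17988 ± 2058, *Ebi3*, a subunit of interleukin 35, from 10.9 ± 5.51 to 1906 ± 617 and *Ctla4* from 1848 ± 782 to 14167 ± 5437. *Il2ra*, which encodes CD25, rose from 1469 ± 341 to 4999 ± 1157. *Gpr83* was the member that fell, from 963 ± 108 to 527 ± 148. Follicular helper genes rose in 12 of 13 cases, with a median of 2.59. *Ascl2*, an early factor of that fate, had 0 reads in the naïve libraries and 143, 393 and 46.9 normalized counts in TEM libraries (at least 57.7-fold), *Pdcd1*, encoding PD-1, rose from 214 ± 46.5 to 10918 ± 3571, and *Bcl6*, the master regulator, rose by a log2 fold change of 0.99 ± 0.24. TEM replicate 2, the lowest for *Foxp3*, was the highest for *Ascl2*, *Pdcd1*, *Il21* and *Cxcr5*.

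Inhibitory receptors rose in 11 of 14 cases, with a median of 2.55, and *Btla*, *Vsir* and *Cd96* did not pass. *Tigit* went from 33.4, 40.3 and 12.7 to 7219, 9287 and 5729 (8.08 ± 0.48). *Lag3*, a ligand of class II molecules, went from 80.6, 138 and 26.5 to 6684, 14794 and 4367. *Havcr2*, encoding TIM-3, rose from 13.9 ± 8.47 to 2560 ± 721. Dendritic cells transcribe it too, and their markers moved with the group as given above. Costimulatory receptors rose in 9 of 13 cases and fell in 1, with a median of 1.68. The 1 that fell was *Cd27*, of the TNF receptor family, from 9932 ± 1121 to 7808 ± 9.91 (adjusted p = 0.0282, limma), and its adjusted p was 0.122 without naïve replicate 3 and 0.0649, 0.0649 and 0.0654 without TEM replicates 1, 2 and 3. Others of that family rose, with *Tnfrsf4* (OX40) from 769 ± 170 to 10718 ± 3135 and *Tnfrsf9* (4-1BB) from 356 ± 59.5 to 4882 ± 1245, and *Icos* rose from 2260 ± 567 to 13415 ± 1672. *Cd28* gave 21713 ± 7329 and 24028 ± 3617 and did not pass.

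Cytotoxic genes did not move as one. Of 14 tested, 8 rose and 1 fell. *Gzmb* and *Gzmk*, which encode granule proteases, rose from 15.3 ± 8.77 to 432 ± 90.8 and from 14.9 ± 12.4 to 773 ± 319. *Nkg7*, a granule membrane protein, rose from 24.5 ± 14.6 to 1877 ± 435, and *Klrk1*, encoding NKG2D, from the floor to 154 ± 19.7 (at least 45.7-fold). The exception was *Prf1*, the pore-forming perforin, which stood at 4030, 2677 and 3532 in naïve libraries and at 169, 185 and 175 in TEM libraries, a log2 fold change of -4.25 ± 0.29 (adjusted p = 1.97e-07). With the replicate number as a block, 9 of the 14 rose and 2 fell.

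Receptors for cytokines divided between the groups, with 13 of 27 higher (48.1%) and 10 lower (37.0%) and a median of 0.37. Of all tested genes 29.9% rose and 19.9% fell. *Il2rb*, the beta chain shared by the interleukin 2 and 15 receptors, rose from 3572 ± 390 to 33352 ± 4457. *Il12rb2*, needed for Th1 responses, rose from 21.6 ± 8.20 to 661 ± 171, *Il23r*, its Th17 counterpart, from 0 reads to 93.6 ± 26.8 (at least 27.8-fold), and *Il1r2*, a decoy receptor for interleukin 1, from 4.61, 9.55 and 1.15 to 1831, 2231 and 765. Those that fell included *Il4ra* (23944 ± 2620 to 5560 ± 668), the TGF-beta co-receptor *Tgfbr3* (7301 ± 1917 to 2057 ± 102), *Ifngr2* (4005 ± 912 to 1382 ± 448) and both chains of the interleukin 6 receptor, *Il6ra* and *Il6st*, by 0.60 and 0.61 on the log2 scale.

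The T cell receptor complex and its proximal signalling changed little in comparison. Of 26 genes, 5 rose (19.2%, beside 29.9% of all tested genes), 9 fell (34.6%, beside 19.9%) and 12 did not pass, with a median of -0.15. With the replicate number as a block 8 rose and 12 fell, whereas after quantile normalization 10 rose and 7 fell. *Nfatc1*, a calcium-driven transcription factor, gave the largest increase (13407 ± 2508 to 33388 ± 3333), and the adaptor *Grap2* (21568 ± 110 to 7263 ± 957) gave the largest decrease. *Zap70*, the kinase bound to the receptor chains, rose by 0.61 ± 0.16. Immediate early and Nr4a genes, which mark recent stimulation and also respond to tissue handling, gave 9 increases among 21 and 0 decreases, and 15 increases and 1 decrease with the block. *Fosb* went from 130, 573 and 249 to 1962, 4833 and 3371, and *Fos* from 1183, 3984 and 2602 to 3186, 8713 and 7530. Replicate 1 was the lowest for both genes in both groups, and *Fos* passed only when the replicate number was a block or only the 6 libraries were fitted (adjusted p = 0.148 over 12 libraries, 0.000219 with the block and 0.0361 over 6 libraries without it). *Nr4a1* stood at 4113 ± 1140 and 5459 ± 1241, with an adjusted p of 0.353, or 0.0200 with the block.

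Cell cycle genes rose in 31 of 37 cases, *Ccnd3* fell and 5 did not pass, with a median of 2.79. *Mki67*, the proliferation marker Ki-67, went from 238, 188 and 168 to 11643, 11483 and 17284 (6.07 ± 0.22), *Top2a*, encoding topoisomerase II alpha, from 344, 468 and 347 to 8330, 9111 and 11897 and *Cdk1*, the mitotic kinase, from 22.2 ± 11.4 to 850 ± 190. *Ccna2*, an S and M phase cyclin, rose from 44.4 ± 13.6 to 2546 ± 373, and *Bub1*, of the spindle checkpoint, from 11.2 ± 1.79 to 804 ± 247. The replication clamp gene *Pcna* rose from 4429 ± 220 to 6273 ± 701, and *Mcm2*, *Mcm4*, *Cdk2*, *Ccnd2* and *Cdkn1b* did not pass.

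Glycolysis genes rose in 10 of 20 cases with a median of 0.50. The inducible hexokinase gene *Hk2* (42.8 ± 13 to 872 ± 237) and the lactate exporter gene *Slc16a3* (105 ± 11.5 to 1242 ± 259) stood out in size, and *Ldha* gave 24005 ± 1769 and 24566 ± 1704. With the block 13 rose and 2 fell. Sterol and fatty acid synthesis went the other way, with 1 of 23 higher (4.35%, beside 29.9% of all tested genes) and 7 lower (30.4%, beside 19.9%). The median was -0.25, and with the block 3 were higher and 13 lower. The desaturase gene *Scd2* was the member that rose, from 3575 ± 461 to 7821 ± 77.9.

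Survival genes were mixed, with 11 of 21 higher and 6 lower. *Bcl2*, the anti-apoptotic founder of its family, fell from 11058 ± 767 to 4803 ± 333. The pro-apoptotic genes *Bcl2l11* (BIM) and *Bbc3* (PUMA) fell as well, from 7397 ± 1379 to 3865 ± 625 and from 11203 ± 3231 to 3424 ± 702, whereas *Pmaip1* (NOXA) rose from 114 ± 47.4 to 2662 ± 536. *Casp1*, an inflammatory caspase gene, rose with a log2 fold change of 3.78. Interferon-stimulated genes rose in 7 of 25 cases (28%, near the 29.9% of all tested genes) and fell in 8 (32%, beside 19.9%). Their median was -0.04. *Mx1* went from 27.6, 65.8 and 17.3 to 486, 626 and 398 and *Oas1a* from 409 ± 143 to 2247 ± 320, but *Ifit2* fell from 4726 ± 327 to 1787 ± 102 and *Usp18*, an inhibitor of interferon signalling, from 1069 ± 286 to 474 ± 68.2.

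**Figure D4:**
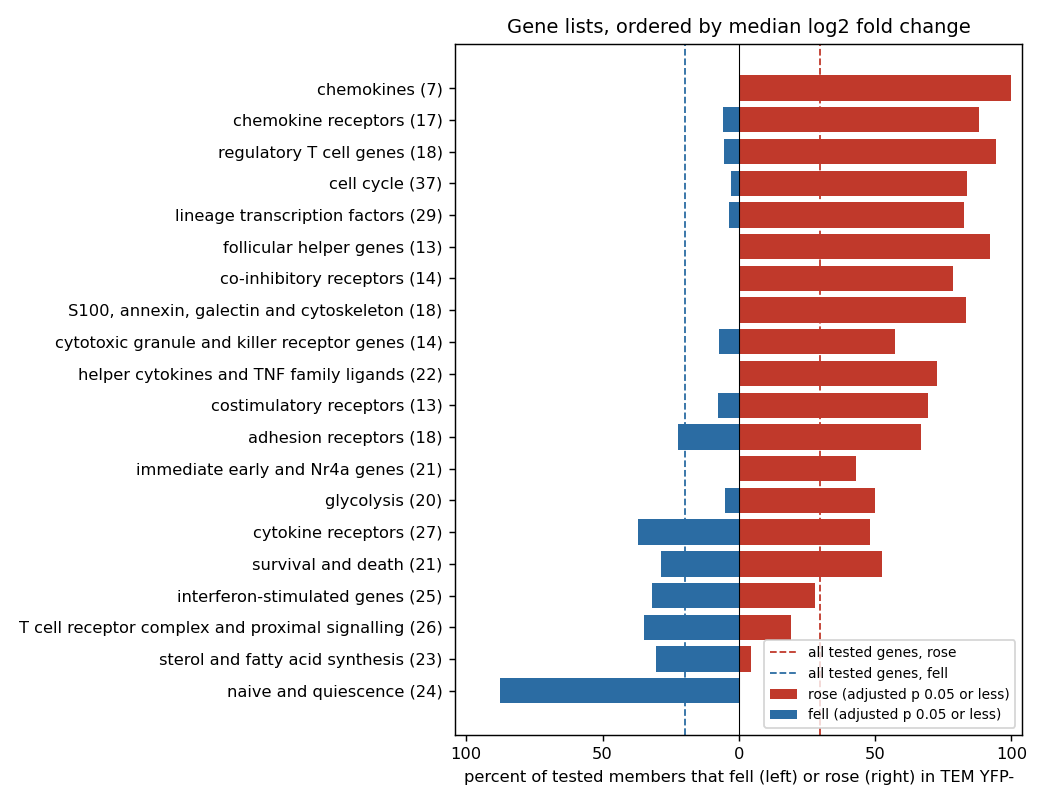
Percent of tested members of each gene list (number tested in brackets) that rose (red, to the right) or fell (blue, to the left) in TEM YFP- cells at an adjusted p of 0.05 or less, ordered by median log2 fold change. Dashed lines mark all tested genes (29.9% rose and 19.9% fell): 17 of 18 regulatory T cell genes and 15 of 17 chemokine receptors rose, and 21 of 24 naïve and quiescence genes fell. The lists were chosen with earlier results of these data known.

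The same difference between TEM and naïve cells was set against that in the YFP+ libraries, the cells with a history of GM-CSF expression, through the interaction term of the fit. It was called in 483 cases (3.1%), 382 above 0 and 101 below, where above 0 means a more positive difference in YFP- than in YFP+ cells, and 554 genes passed on the adjusted p alone (3.55%). Of the 3301 genes called higher in YFP- TEM cells, 402 (12.2%) were also called in the interaction, as were 27 of the 819 called lower (3.30%). The count of 483 was 318 without TEM YFP- replicate 1 and 255 without TEM YFP- replicate 3.

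Dendritic cell genes stood on the YFP- side of that difference. *Siglech* reached 2681 ± 1100 in TEM YFP- and 66.8 in TEM YFP+ cells on average, an interaction of 6.46 on the log2 scale (adjusted p = 0.0214). *Itgax* gave 4.39, *Flt3*, the receptor for the growth factor of dendritic cell precursors, 5.44, and *Havcr2* 4.08. In 11 of 12 plasmacytoid and 11 of 12 conventional dendritic cell markers the interaction passed, and one of these, *Ccr9*, went the other way. Of 16 macrophage, monocyte and neutrophil markers tested, the interaction passed in 2, *Adgre1* and *Cd68*. On the YFP+ side were *Cxcr6* (1224 ± 56.4 in TEM YFP- and 10923 in TEM YFP+ cells), *Il2rb* (33352 ± 4457 and 65830) and *Il2ra* (4999 ± 1157 and 7783), which rose in YFP- memory cells but rose less. Their log2 fold changes over naïve cells in YFP- and YFP+ libraries were 6.57 and 9.38, 3.22 and 4.62, and 1.76 and 3.44. The naïve groups enter the interaction too, so the TEM means alone do not give its size. The log2 fold change of *Prf1* was -4.25 in YFP- and -1.21 in YFP+ cells, and that of *Satb1* was -4.30 and -2.46. *Slc27a6*, a fatty acid transporter gene, *Aqp9*, a glycerol channel gene, and the receptor segment *Trav11d* had TEM YFP- means of 36.7, 47.4 and 117 and TEM YFP+ means of 1421, 1495 and 1935. For *Foxp3*, *Maf*, *S100a4*, *Cd44* and *Cxcr3* the interaction did not pass, with differences between -0.35 and 0.28 on the log2 scale.

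**Figure D5:**
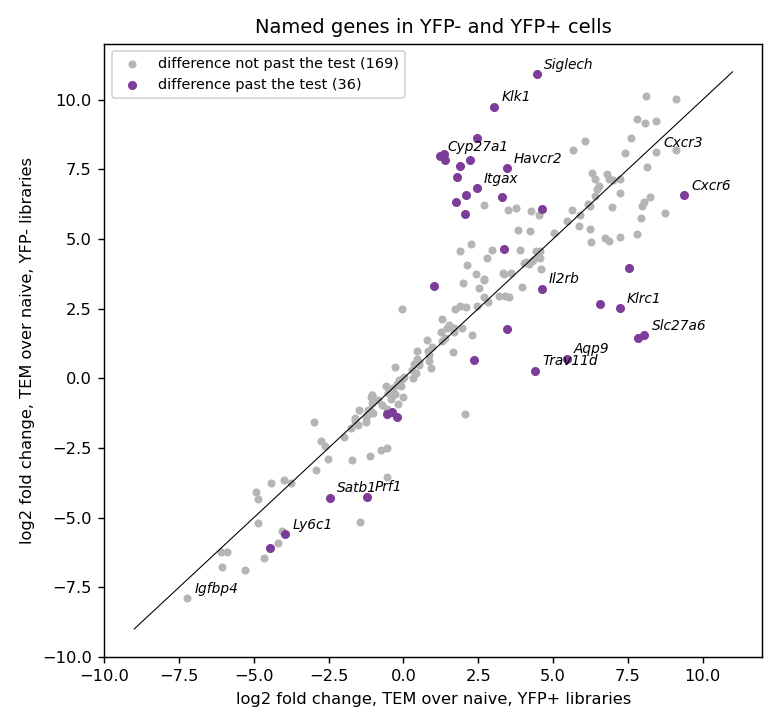
Log2 fold change of TEM over naïve cells in the YFP- libraries (vertical axis) against that in the YFP+ libraries (horizontal axis) for 205 named genes, with a line of equal change. The 36 genes whose difference passed the interaction test (purple) include *Siglech* and *Klk1* above the line and *Cxcr6*, *Slc27a6*, *Prf1* and *Satb1* below it. Genes at the floor in both YFP- groups, such as *Csf2*, are not drawn.

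Promoter sequence was read from RefSeq on GRCm38.p6 in windows of 300 bases, 250 before and 50 after each listed start site. Of the tested genes 11419 matched such a window, 2467 of them called higher and 584 called lower. Motif letters were searched on both strands, and a match describes the letters only. The AP-1 letters TGANTCA were in 5.29% of the windows of tested genes, 7.50% of those of genes called higher and 5.70% of those of genes called lower, beside 7.81% of all windows in the table. The RUNX letters TGTGGTT were in 4.10%, 5.17% and 3.89%, and 5.27% of all windows. For the T-box letters TCACACC the shares were 3.46%, 3.78% and 3.63%, with 3.98% of all windows, and for the TCF and LEF letters CTTTGAT they were 2.64%, 2.40% and 2.46%, with 3.73%.

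The 250 bases before 1 start site are printed for 5 genes described above, 5′ to 3′ on the strand of the gene, with matches to these motifs in capitals. *Igfbp4*, the largest decrease, holds none of the 4 motifs (chr11:99040994-99041243, plus strand). *S100a11* (chr3:93520246-93520495, plus) holds the AP-1 letters at 2 places and *Anxa2* (chr9:69453433-69453682, plus) at 1. *Gzmb* (chr14:56262335-56262584, minus) holds AP-1 and RUNX letters near its start, and *Tigit* (chr16:43664185-43664434, minus) the RUNX letters.
Igfbp4: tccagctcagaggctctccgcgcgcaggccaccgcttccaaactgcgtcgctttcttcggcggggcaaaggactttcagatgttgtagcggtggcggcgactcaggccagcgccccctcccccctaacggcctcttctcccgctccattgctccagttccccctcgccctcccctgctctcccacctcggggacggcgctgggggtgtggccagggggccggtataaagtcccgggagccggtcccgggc
S100a11: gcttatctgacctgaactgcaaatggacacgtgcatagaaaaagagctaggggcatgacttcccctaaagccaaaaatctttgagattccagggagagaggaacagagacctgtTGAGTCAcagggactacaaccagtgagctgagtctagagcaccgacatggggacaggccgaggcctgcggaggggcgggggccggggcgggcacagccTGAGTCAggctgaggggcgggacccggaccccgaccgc
Anxa2: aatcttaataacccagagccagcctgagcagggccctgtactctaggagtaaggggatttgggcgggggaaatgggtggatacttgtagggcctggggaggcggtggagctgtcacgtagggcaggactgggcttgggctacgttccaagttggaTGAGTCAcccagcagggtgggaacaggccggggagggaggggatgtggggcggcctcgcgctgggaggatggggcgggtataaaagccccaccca
Gzmb: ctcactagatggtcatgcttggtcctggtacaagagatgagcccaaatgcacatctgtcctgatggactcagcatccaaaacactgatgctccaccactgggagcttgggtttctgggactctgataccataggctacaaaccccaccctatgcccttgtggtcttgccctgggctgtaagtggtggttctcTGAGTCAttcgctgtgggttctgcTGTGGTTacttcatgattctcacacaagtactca
Tigit: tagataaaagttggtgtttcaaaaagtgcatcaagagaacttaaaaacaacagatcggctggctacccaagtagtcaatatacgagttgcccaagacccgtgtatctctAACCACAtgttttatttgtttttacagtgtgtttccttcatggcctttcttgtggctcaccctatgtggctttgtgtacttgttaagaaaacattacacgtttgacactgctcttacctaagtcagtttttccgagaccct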

How the data were processed

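RNA from 4 sorted populations (12 libraries, 3 per group) was prepared as stranded total RNA libraries and sequenced by the authors on an Illumina HiSeq2500. Per the study's methods, reads were aligned to mm10 with DRAGEN and counted per gene with Rsubread, and counts were normalized with DESeq2. The tool versions, the annotation and whether counting used strand are not given in the sources used here. The deposited signal is a count per gene and library divided by a size factor. Values were turned back into whole reads (100% of values whole within 0.01), which gave the depth of each library, 40974124 to 57822269 reads in the 6 libraries compared.

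Genes that reached 5 normalized counts in 3 or more of the 12 libraries were kept (15587 of 17523), and log2(normalized count + 1) was fitted with limma 3.58.1 (R 4.3.3) with 4 group means over 12 libraries, 8 residual degrees of freedom and a variance trend. P-values were adjusted by Benjamini-Hochberg over all tested genes. Calls needed a log2 fold change of 1 or more in size and an adjusted p no larger than 0.05, and members of gene lists passed on the adjusted p alone. The interaction was the TEM minus naïve difference in YFP- minus that in YFP+ libraries. Log2 fold changes understate the change of low genes. A group was at the floor when no library had more than 3 reads. An exact permutation test of single genes could not reach an adjusted threshold with 3 libraries against 3, and was not used.

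Genes were named as the 10 largest increases and decreases among called genes without overlap whose mean reached 50, and the 5 highest genes at the floor in the other group. To these came anchor genes and up to 3 largest changes each way in each list, and the 5 largest interactions each way. *Cd79b* and members given as not passing were added as exceptions to this rule where a count was small. Members and lists were chosen with earlier results of these data known. Same-numbered libraries of the TEM and naïve groups deviated together (correlations of deviations 0.168, 0.137 and 0.232, other pairs -0.155 to -0.0193). The fit as reported did not use this pairing. Its calls, list counts and adjusted p are unpaired unless the block is named. The fit with the replicate number as a block was an alternative. Other alternatives were pseudocounts of 0.1 and 5, filters, quantile and TMM scaling, the 6 libraries alone, no variance trend, edgeR 4.0.16 and DESeq2 1.42.0 on recovered reads, and leaving out each library. Only the limma contrast of TEM YFP- against naïve YFP- was run on simulated counts, with equal numbers of increases and decreases. The simulation did not cover the interaction, the alternative fits, an excess of increases or genes near the floor. Gene names, positions and promoter windows came from RefSeq tables (GRCm38.p6), and 16749 of the 17523 identifiers matched a symbol. Some named genes are not reported here.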

Additional observations from a re-analysis of the deposited data

Results flagged for a closer look

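For 36 of the named genes the difference between TEM and naïve cells differed between YFP- and YFP+ libraries by the interaction term (limma, adjusted p of 0.05 or less), and each value below is the YFP- difference minus the YFP+ difference on the log2 scale. Values above 0 included dendritic cell genes and some genes known from myeloid or natural killer cells, although only 2 of 16 tested macrophage, monocyte and neutrophil markers passed: *Siglech* 6.46, *Klk1* 6.72, *Flt3* 5.44, *Tcf4* 2.31, *Zbtb46* 3.22, *Itgax* 4.39, *Cd209a* 5.63, *Adgre1* 4.59, *Nlrp3* 6.48, *Csf2rb2* 6.71, *Cyp27a1* 6.75, *Fcer1g* 3.84 and *Tyrobp* 4.49. *Adam11* gave 5.74, *D13Ertd608e* 6.16, *Havcr2* 4.08, and the cell cycle genes *Mki67* and *Top2a* gave 1.43 and 1.29.

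Values below 0 included *Csf2* itself at -4.40, which was at the floor in both YFP- groups. Receptors and effector genes followed, with *Cxcr6* at -2.82, *Il2ra* at -1.68, *Il2rb* at -1.40, *Itgb3* at -1.18, *Fasl* at -1.71, *Prf1* at -3.04 and the killer receptor gene *Klrc1* at -4.72. *Slc27a6* gave -6.50, *Cntn1*, a neuronal adhesion gene, -6.39 and *Aqp9* -4.77. T cell receptor segments and constant regions gave -4.14 for *Trav11d*, -3.89 for *Trgc1* and -3.60 for *Trgc2*, and reads may be split among near-identical copies of these genes and of *Ly6c1* (-1.65). Genes of the naïve state and survival gave -1.84 for *Satb1*, -1.64 for *Cnn3* and -0.80 for *Bcl2*. Dendritic markers differed between TEM YFP- and TEM YFP+ libraries as given above, and their part in these values was not tested.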

How the results depend on the processing

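Of 205 named-gene results, 174 kept their direction and their side of the threshold under every alternative run and 31 did not. The number of increases (3301) stayed within 1.5 times under every alternative that kept the fold change threshold at 1, with 2306 the lowest, after quantile normalization, and 3119 to 3272 when a library was left out. The number of decreases (819) was 2748 after quantile normalization, 270 at an absolute log2 fold change of at least 2 and 3104 without a fold change threshold, and 741 to 816 with a library left out. With the replicate number as a block, 3372 genes were higher and 857 lower, and among list counts not given with the block in the report, those that it moved by over 1.5 times were decreases of helper cytokines (0 to 1) and of lineage transcription factors (1 to 2). The interaction count (483) was 255 to 480 with a library left out. Quantile normalization turned *Aqp9* to -0.77, *Cntn1* to -0.37, *Trav11d* to -1.01, *Lck* to 0.10 and *Jun* to 0.0550. *Cd3e* and *Ldha* turned to -0.0290 and -0.0128 with TMM factors, -0.0219 and -0.0122 with edgeR, and -0.0240 and -0.0081 with edgeR and the block. With a library left out, *Crip1* ranged from -0.16 to 0.11, *Cd3e* from -0.10 to 0.10, *Jun* from -0.35 to 0.33, *Ldha* from -0.0290 to 0.0729 and *Trav11d* from -0.0046 to 0.45. Of these genes *Cntn1* alone passed in the fit as reported, while *Trav11d* (-1.01, adjusted p = 0.0429), *Cd3e* and *Ldha* passed after quantile normalization, *Lck* with TMM factors, edgeR, DESeq2 and the block, and *Aqp9* with the block. The cause was not tested. Depth limited genes at the floor, whose fold changes are lower bounds that cover counting error only.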
